A study of Mus musculus with 16 samples.

Results

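RNA sequencing libraries of proliferating mouse embryonic fibroblasts were compared between cells that carried a Zac1 mutation (Zac+/-) and wildtype cells (Zac+/+). The comparison used the day 2 harvests only, 2 mutant lines against 2 wildtype lines, which are 4 of the 16 libraries of the study. All lines were C57BL/6 fibroblasts derived from embryos at embryonic day 13.5 and grown in DMEM with serum. Day 2 in vitro is called proliferative in the labels. The other 12 libraries are harvests of the same 4 lines at days 8, 10 and 12, called quiescent, and are used below only to set a day 2 value beside the resting level of the same line. The title code of the mutant lines is not expanded in the sources used here, nor is the part of the gene that the mutation removes. The labels give both replicate 1 lines the letter I and both replicate 2 lines the letter L without saying what the letters mark. Each line counted as 1 replicate, and how many embryos went into a line was not given.

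Zac1, now named Plagl1, encodes a zinc finger transcription factor of the PLAG family, whose other members are Plag1 and Plagl2. It is an imprinted gene, expressed mainly from the copy inherited from the father, and it is known for restraining the cell cycle when overexpressed and for belonging to a network of coexpressed imprinted genes that control embryonic growth. Embryonic fibroblasts are connective tissue cells that divide in fresh culture and leave the cell cycle at high density, when they deposit much of their collagenous matrix. The series title names matrix genes and the imprinted gene network, so the comparison asks which of these genes differ with genotype while the cells are still dividing.

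Plagl1 (NCBI gene 22634) stood apart from all other genes. Its level at day 2 was 44.7 and 37.4 CPM (counts scaled to library size, with TMM factors) in wildtype replicates 1 and 2, and 9.05 and 7.56 CPM in mutant replicates 1 and 2. Both mutant lines lay far below both wildtype lines, and the lines of a genotype lay close to each other. The means were 41.0 ± 5.21 and 8.31 ± 1.054 CPM (SD, n = 2 lines each), which puts the mutant lines at -2.31 on the log2 scale against wildtype (SE 0.156, adjusted p = 8.50e-04 in edgeR). Within each letter the mutant line held 0.202 of the wildtype level. Whether the counts left in mutant lines come from an unaltered transcript was not tested.

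The other PLAG genes overlapped between genotypes. Plag1 was at 5.62 and 5.53 CPM in wildtype and 7.13 and 5.24 CPM in mutant cells (log2 0.14). Plagl2 was at 31.7 and 35 CPM against 29.8 and 34.2 CPM (log2 -0.06). In the quiescent sums of the same lines Plagl1 was at 200.9 and 163.3 CPM in wildtype and 47.4 and 51.5 CPM in mutant lines, a log2 difference of -1.88. The difference between the day 2 and the quiescent genotype effect on Plagl1 was -0.43 on the log2 scale (SE 0.206) and did not pass (edgeR adjusted p = 1.00).

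**Figure D1:**
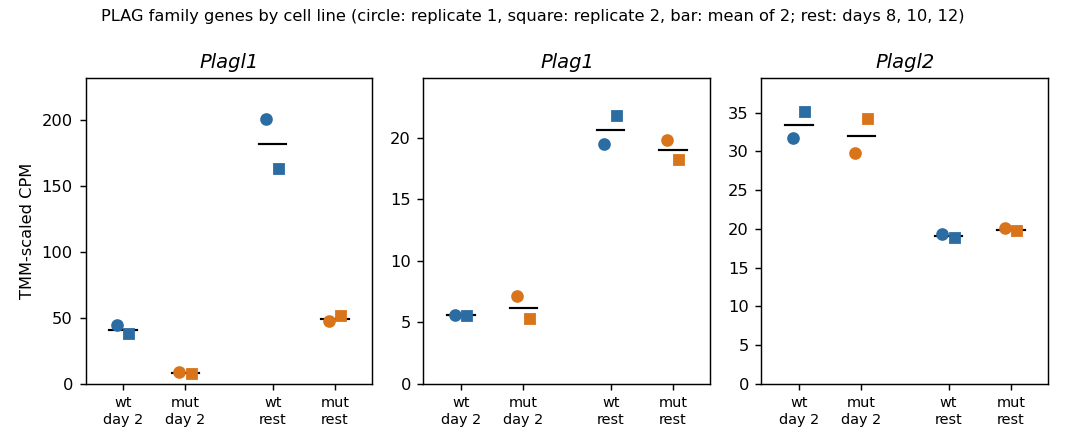
Level in TMM-scaled CPM (vertical axis, from 0) of Plagl1, Plag1 and Plagl2 in each cell line at day 2 and in the sum of its quiescent harvests (rest), with wildtype (wt) in blue and mutant (mut) in orange. The mutant lines lie at 9.05 and 7.56 CPM for Plagl1 at day 2, below the wildtype lines at 44.7 and 37.4, while Plag1 and Plagl2 overlap between genotypes at day 2.

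The regions around the annotated starts of 3 genes are printed to show the regulatory sequence of the mutated gene next to that of Col3a1 and Cpxm1, which are among the higher genes described below. They run from 250 bases before to 50 bases after the start and were taken from RefSeq (GRCm38.p6), which is not the build of the counts (mm9). CG dinucleotides are in capitals. The regions are chr10:13090582-13090881 (plus strand) for Plagl1, chr1:45311288-45311587 (plus strand) for Col3a1 and chr2:130397580-130397879 (minus strand) for Cpxm1.
Plagl1: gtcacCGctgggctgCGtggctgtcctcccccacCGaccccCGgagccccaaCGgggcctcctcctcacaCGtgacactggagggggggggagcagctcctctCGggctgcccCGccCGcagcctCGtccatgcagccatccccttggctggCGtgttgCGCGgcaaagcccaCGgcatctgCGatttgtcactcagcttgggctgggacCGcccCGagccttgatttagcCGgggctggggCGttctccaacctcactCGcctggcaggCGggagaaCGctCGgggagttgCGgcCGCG
Col3a1: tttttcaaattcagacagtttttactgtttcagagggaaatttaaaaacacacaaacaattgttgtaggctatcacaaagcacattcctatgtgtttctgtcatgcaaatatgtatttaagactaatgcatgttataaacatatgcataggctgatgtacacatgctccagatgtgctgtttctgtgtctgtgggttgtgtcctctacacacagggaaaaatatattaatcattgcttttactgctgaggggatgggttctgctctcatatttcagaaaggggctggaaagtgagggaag
Cpxm1: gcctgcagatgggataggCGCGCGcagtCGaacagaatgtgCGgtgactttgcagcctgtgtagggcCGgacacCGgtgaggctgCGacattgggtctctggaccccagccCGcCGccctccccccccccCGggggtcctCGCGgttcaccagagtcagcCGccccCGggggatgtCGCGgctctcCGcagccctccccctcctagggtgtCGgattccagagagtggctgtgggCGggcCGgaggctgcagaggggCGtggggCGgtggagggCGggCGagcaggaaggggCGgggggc
The Plagl1 region held 26 CG dinucleotides at 70.7% G and C, and the Cpxm1 region 26 at 72.7%. The Col3a1 region held 0 at 37.7%. The letters GGGGCCCC, which read the same on both strands and are the core of the GC-rich element reported for Zac1, had 0 matches in these 3 windows. They were present in 1.08% of all 32851 windows of this length in the table and in 1.5% of the 15507 windows of tested genes. Of the genes named below, 9 of the 12 higher ones had a window (10 windows), as did 9 of the 12 lower ones (9 windows). None of these windows held the letters, but at a share of 1.5% so few windows would mostly hold none. Of 119 windows from 97 of 136 matrix genes, 2 held them (1.68%), those of Col4a2 and Podn. A match is a string of letters in a window and was not tied to binding.

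Total counts of the day 2 libraries were 35487131 and 61039793 in wildtype and 28079241 and 55936798 in mutant replicates 1 and 2, so that 3 counts were worth 0.0492 to 0.107 CPM. Between 15979 and 16320 genes had a count. The labelled state was checked on cell cycle genes: from day 2 to quiescence, 33 of 33 S phase and 32 of 32 G2/M genes fell in wildtype and in mutant lines alike (edgeR adjusted p under 0.05, with 23.7% and 21.0% of all genes called lower in wildtype and in mutant cells). Fibroblast markers such as Vim (3769 to 4663 CPM over the 4 lines) and Pdgfrb (163 to 193 CPM) were high in every line. Xist and the Y-linked Ddx3y were both present in every line, at 190.0 to 434 and 23.0 to 45.5 CPM.

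Apart from Plagl1, 0 of 15740 genes passed the test between genotypes at day 2 (0.00635% of genes called in all, Plagl1 alone, by edgeR's quasi-likelihood test with Benjamini-Hochberg adjusted p under 0.05). At an unadjusted p under 0.05 there were 451 genes, 2.87% of those tested, against 787 expected if no gene differed. DESeq2 called 3 genes on the same libraries (0.0191%), namely Plagl1, Islr and Cpxm1. Every gene other than Plagl1 had an edgeR adjusted p of 1.00, and for these genes higher and lower describe the measured values only. With 2 lines per genotype the smallest two-sided p of an exact permutation test is 0.33, so a call draws on the spread estimated over many genes.

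Lines of the same genotype were about as far apart as lines of different genotype. The median absolute log2 difference over genes was 0.218 between the wildtype lines and 0.254 between the mutant lines. It was smaller between genotypes within a letter, at 0.179 for the letter I lines and 0.154 for the letter L lines. In a principal component analysis of the 4 libraries the genotypes were separated on the third component, which held 27.1% of the variance, and not on the first or the second, which held 39.2% and 33.7%. The fitted log2 difference lay above 0 for 50.4% of genes and below 0 for 49.1%. The 2 mutant lines lay above both wildtype lines for 12.4% of genes and below both for 11.4%.

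**Figure D2:**
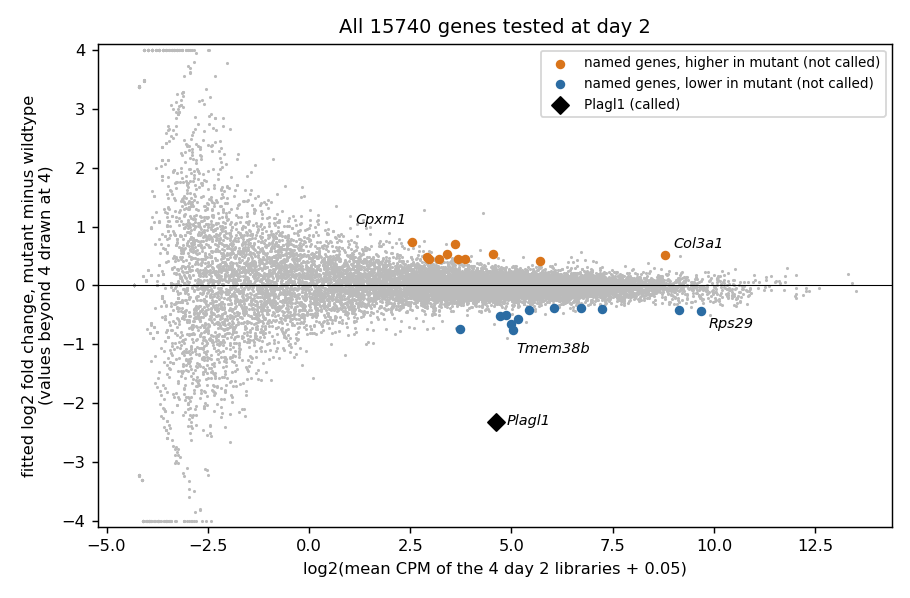
Fitted log2 fold change (vertical axis, mutant minus wildtype) against mean level (horizontal axis, log2 CPM) for the 15740 genes tested at day 2, one grey point per gene. Plagl1 (black diamond, log2 -2.31) is the 1 gene called, and the named higher (orange) and lower (blue) genes, such as Col3a1 at 0.52 and Rps29 at -0.43, were not called.

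The 12 higher genes with the smallest unadjusted p, among well expressed genes whose lines did not overlap between genotypes, included several secreted and matrix proteins. Cpxm1, a secreted carboxypeptidase-like protein, was at 4.51 and 4.19 CPM in wildtype and 6.84 and 7.56 CPM in mutant lines (log2 0.74, SE 0.131). It met the level rule, a mean of 5 CPM in a genotype, only through the mutant lines (mean 7.20, against 4.35 in wildtype). Col3a1, which encodes type III collagen, was at 345 and 387 CPM in wildtype and 497 and 550 CPM in mutant lines (log2 0.52, SE 0.126). Olfml3, a secreted olfactomedin-like protein, was at 18.3 and 19.9 CPM against 24.5 and 30.9 CPM (log2 0.54, SE 0.126). In each of these genes the lower mutant line exceeded the higher wildtype line because genes were chosen that way. None passed the edgeR test.

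C1qtnf1, a secreted protein of the C1q and TNF related family, was at 9.23 and 9.29 CPM in wildtype and at 11.8 and 18.1 CPM in mutant lines (log2 0.71), so that most of its difference lay in mutant replicate 2. Mmp19, a matrix metalloproteinase, was at 13.5 and 11.1 CPM against 16 and 17.2 CPM (log2 0.44). Other higher genes do not encode secreted proteins. Pik3ip1, an inhibitor of phosphatidylinositol 3-kinase, was at 7.65 and 7.83 CPM against 10.0 and 11.2 CPM (log2 0.46). Others were Ypel2 (log2 0.45), the acyl-CoA thioesterase Acot11 (0.48), the nucleosome assembly family member Tspyl4 (0.45), the lysoplasmalogenase Tmem86a (0.54) and Nynrin (0.41).

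The quiescent levels of these 12 genes were higher than at day 2 in both genotypes. Cpxm1 stood at 67.6 and 66.9 CPM in quiescent wildtype and 68.6 and 59.7 CPM in quiescent mutant lines (log2 -0.07). Col3a1 stood at 7015 and 8441 CPM against 8966 and 8454 CPM (log2 0.17). Nynrin lay the other way at quiescence, at 125.9 and 118.0 CPM against 114.2 and 94.9 CPM (log2 -0.22). None of these differences between the states passed as an interaction (edgeR adjusted p = 1.00 each).

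The 12 lower genes are given next, by the same rule. Polr2k, a small subunit shared by the RNA polymerases, was at 44.9 and 40.3 CPM in wildtype and 29.0 and 28.4 CPM in mutant lines (log2 -0.57, SE 0.141). Polr2f, another shared subunit, was at 78.4 and 71.5 CPM against 58.3 and 56.6 CPM (log2 -0.38, SE 0.103). The mutant lines were close to each other in both genes. Atp5j2, a subunit of mitochondrial ATP synthase, was at 31.8 and 30.2 CPM in wildtype and 22.8 and 20.7 CPM in mutant lines (log2 -0.52, SE 0.116). Snrpg, a core protein of the spliceosomal particles, was at 124.5 and 113.8 CPM against 88.7 and 93.1 CPM (log2 -0.39). In all 4 genes both mutant lines lay below both wildtype lines, again because of how genes were chosen.

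Proteins of the small ribosomal subunit were also among them. Rps29 was at 986 and 894 CPM in wildtype and 659 and 738 CPM in mutant lines (log2 -0.43, SE 0.113). Rps28 was at 665 and 630 CPM against 464 and 501 CPM (log2 -0.42). Rpl22l1, a paralog of a large subunit protein, had a log2 difference of -0.40. Reads of ribosomal protein genes can be shared with near-identical pseudogene copies, so these levels are uncertain. Tmem38b, an ion channel of the endoplasmic reticulum, was at 39.9 and 41.9 CPM against 28.5 and 20.3 CPM, the lowest log2 value of the 12 at -0.75. Slc7a14 (log2 -0.73), the DNA repair nuclease Dclre1c (-0.65), Tmem69 (-0.51) and Pdcd5 (-0.42) made up the rest.

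**Figure D3:**
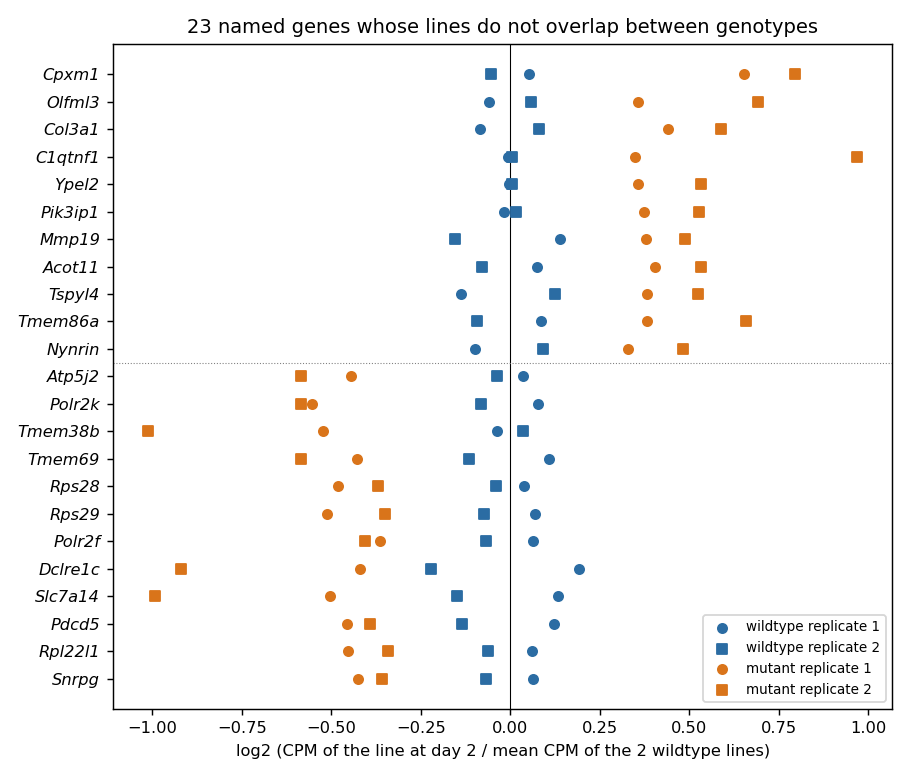
Log2 ratio of each line's CPM at day 2 to the mean of the 2 wildtype lines (horizontal axis) for 11 of the higher and the 12 lower named genes, with wildtype in blue, mutant in orange, circles for replicate 1 and squares for replicate 2. Lines do not overlap because the genes were chosen that way, and mutant replicate 2 lies farther out than mutant replicate 1 for 11 of 11 higher and 7 of 12 lower genes.

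Genes of the extracellular matrix lay mostly higher in mutant lines, by a small amount in the median. Over the 6 structural matrix lists (fibrillar and other collagens, basement membrane, proteoglycans, glycoproteins and elastic fibre), 108 of 136 tested genes had a fitted log2 above 0 and 27 below, with a median of 0.18, against 50.4% above 0 and a median of 0.00 over all genes. The medians within letters were 0.17 (I) and 0.16 (L). The mutant lines lay above both wildtype lines for 34 genes (25%, against 12.4% of all genes) and below both for 4 (2.94%, against 11.4%). Together these genes took 5.70% and 6.28% of CPM in wildtype and 6.59% and 6.44% in mutant replicates 1 and 2. Summed list by list, the genotypes overlapped for other collagens, proteoglycans, glycoproteins and elastic fibre genes. For fibrillar collagens (9718 and 11260 against 11470 and 13020 CPM) and basement membrane genes (5294 and 6137 against 6297 and 6458 CPM) both mutant sums lay above both wildtype sums. In both lists the higher wildtype line was closer to the lower mutant line than to the other wildtype line. None of the 136 passed the edgeR test.

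Among the fibrillar collagens, the rod-forming chains of connective tissue, 10 of 11 lay higher (median log2 0.19). Col1a2, a chain of type I collagen, was at 3056 and 3415 CPM in wildtype and 3860 and 4059 CPM in mutant lines (log2 0.29, SE 0.106), with no overlap. Col1a1, its partner chain, overlapped between genotypes at 3109 and 3426 against 3335 and 3978 CPM (log2 0.16). Col24a1, a minor chain, was at 2.2 and 2.16 CPM against 4.09 and 2.92 CPM (log2 0.67, SE 0.247). Col11a2 was the 1 fibrillar chain below 0 (log2 -0.06, under 1 CPM in all lines). With each line left out in turn, 9 to 11 of these genes lay higher, and the median ranged from 0.09 (without wildtype replicate 1 or without mutant replicate 2) to 0.35 (without wildtype replicate 2). Over the 6 lists and the 4 lines left out, the medians ranged from 0.01 to 0.48.

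Of the other collagens 17 of 22 lay higher (median log2 0.34, or 0.27 with genes at 0 counts in a genotype set to their bounds), with 14 to 18 higher when a line was left out. Col16a1, an associated collagen of fibrils, was at 101.1 and 132.8 CPM against 131.9 and 175.6 CPM (log2 0.39) and overlapped. Col6a1, a chain of the beaded filament collagen, was at 246 and 329 CPM in wildtype and 269 and 478 CPM in mutant lines, again with overlap. Col17a1, a hemidesmosome collagen, lay the other way at 0.762 and 0.671 against 0.217 and 0.417 CPM (log2 -1.12).

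Proteoglycans lay higher for 17 of 21 members (median 0.34, 13 to 17 higher with a line left out). Aspn, a small proteoglycan that binds collagen, was at 14.9 and 14.9 CPM in wildtype and 23.7 and 21.7 CPM in mutant lines (log2 0.61, SE 0.228), with the genotypes apart. Fmod, a regulator of collagen fibril assembly, was at 11.8 and 11.8 CPM against 13.4 and 18.9 CPM (log2 0.47). Basement membrane genes lay higher for 18 of 23 (median 0.18, 15 to 19 with a line left out). Col4a1 and Col4a2, the main type IV collagen chains, had log2 values of 0.24 and 0.22, and the heparan sulfate proteoglycan Agrn one of 0.28 (34.3 and 38.9 against 42.5 and 46.3 CPM).

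Matrix glycoproteins lay higher for 31 of 41 members (median 0.12, 26 to 30 with a line left out). Their summed level was 33170 and 35300 CPM in wildtype and 38370 and 34480 CPM in mutant lines. Thbs2, a thrombospondin involved in collagen fibril assembly, was at 230.2 and 229.2 CPM in wildtype and 275 and 274 CPM in mutant lines (log2 0.26, SE 0.0975), with the lines of each genotype close together. Svep1, a large adhesion protein, was at 81.3 and 92.0 CPM against 107.9 and 110.2 CPM (log2 0.33). Thbs4, another thrombospondin, had 1 and 8 counts in wildtype and 0 in both mutant lines, at least 2.65-fold lower against 3 counts over the group. Elastic fibre genes lay higher for 15 of 18 (median 0.14). With a line left out the median ranged from 0.01 to 0.26, with 9 to 14 higher. Their core protein elastin, Eln, was at 12.1 and 11.6 CPM in wildtype and at 17.5 and 37.8 CPM in mutant lines (log2 1.24, SE 0.629), so that mutant replicate 2 held most of the difference.

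Genes that build, cut or bind the matrix leaned the same way by smaller amounts. Collagen modifying and crosslinking genes were higher for 21 of 25 (median 0.09, from 0.02 to 0.15 with 14 to 20 higher when a line was left out). Plod1, a collagen lysyl hydroxylase, was at 63.8 and 73.6 CPM against 78.2 and 88.5 CPM (log2 0.28). Proteases and their inhibitors were higher for 28 of 36 (median 0.12, with 0.21 within letter I and 0.02 within letter L). With a line left out their median ranged from 0.07 to 0.23. Plat, a plasminogen activator, was at 48.3 and 43.1 CPM in wildtype and 57.9 and 57.3 CPM in mutant lines (log2 0.33, SE 0.121). Plaur, the urokinase receptor, lay the other way at 171.0 and 173.7 against 134.6 and 151.3 CPM (log2 -0.27).

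Integrins, the receptors for matrix proteins, were higher for 13 of 19 (median 0.12, from 0.06 to 0.25 with a line left out). Itga10, a collagen receptor subunit, was at 2.78 and 2.67 CPM in wildtype and 4.74 and 4.50 CPM in mutant lines (log2 0.76, SE 0.193), with the lines of each genotype close together. Itga7, a laminin receptor subunit, was at 27.8 and 29.8 CPM against 38.8 and 33.9 CPM (log2 0.33). At quiescence Itga10 lay the other way (log2 -0.38), and its difference between states, 1.14 on the log2 scale (SE 0.261), did not pass (edgeR adjusted p = 1.00).

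**Figure D4:**
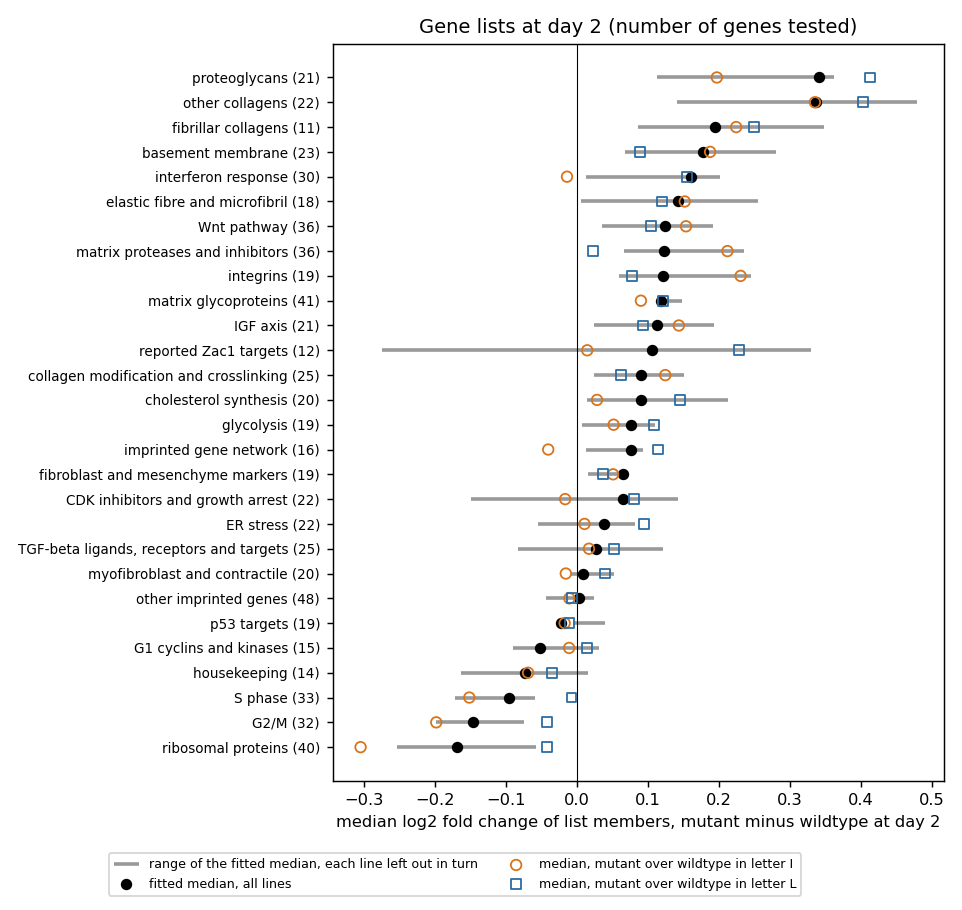
Median log2 fold change (horizontal axis, mutant minus wildtype at day 2) of each list, with the number of genes tested in brackets. Black points are the fit over all lines, grey bars the range of the fitted median with each line left out, open orange circles the ratio within letter I and open blue squares that within letter L; the collagen lists lie right of 0 in both letters, and the ribosomal list lies at -0.30 in letter I and -0.04 in letter L.

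Imprinted genes showed no shared direction. In the imprinted gene network 11 of 16 members lay higher and 5 lower (median 0.08, from 0.01 to 0.09 with a line left out), and of 48 other imprinted genes 25 lay higher and 22 lower (median 0.00). Plagl1 was the 1 member called. Igf2, the paternally expressed growth factor, was at 980 and 1114 CPM in wildtype and 858 and 1463 CPM in mutant lines, with the mutant lines on either side of the wildtype lines. H19, the noncoding RNA next to it, was at 391 and 554 against 375 and 956 CPM (log2 0.49, SE 0.466), also with mutant replicate 2 highest and mutant replicate 1 lowest. Dlk1, a membrane protein that restrains differentiation, was at 24 and 37.1 against 13.6 and 50.04 CPM, in the same order of lines.

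Cdkn1c, a cyclin-dependent kinase inhibitor reported as a Zac1 target, was at 24.7 and 23.0 CPM in wildtype and 21.1 and 22.6 CPM in mutant lines (log2 -0.12, SE 0.186). Both mutant lines lay below both wildtype lines, by less than its SE. Igf2r, the receptor that clears Igf2, was at 457 and 532 CPM against 570 and 575 CPM (log2 0.21, SE 0.11). Meg3 (log2 -0.01), Peg3 (0.11), Mest (0.18), Gnas (-0.04), Ndn (0.04), Gatm (-0.06) and Slc38a4 (0.01) overlapped between genotypes. Grb10, an adaptor that dampens insulin signalling, was at 1052 and 1034 CPM against 1063 and 1187 CPM (log2 0.11).

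Among the other imprinted genes the smallest p belonged to genes of low level. Dio3, a deiodinase that inactivates thyroid hormone, was at 0.644 and 0.788 CPM against 1.09 and 1.74 CPM (log2 0.99). Rasgrf1, a Ras exchange factor, had 2 and 9 counts in wildtype and 0 in both mutant lines, at least 3.24-fold lower against 3 counts over the group. Ddc (log2 0.87) and Xlr3b (-1.10) also lay apart between genotypes. Of 12 genes listed as reported Zac1 targets from earlier literature, 9 lay higher and 3 lower (median 0.11). With a line left out, 3 to 9 lay higher and the median ranged from -0.27 to 0.33. Pparg, the adipogenic nuclear receptor, overlapped at 8.00 and 6.78 against 6.19 and 8.92 CPM.

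In the insulin-like growth factor axis 16 of 21 genes lay higher and 4 lower (median 0.11, from 0.02 to 0.19 with 11 to 16 higher when a line was left out). Igfbp5, a binding protein found in matrix, was at 92.2 and 76.6 CPM in wildtype and 146.5 and 104.5 CPM in mutant lines (log2 0.57, SE 0.24). Igf1, the ligand, was at 5.48 and 5.62 CPM against 7.49 and 6.73 CPM (log2 0.35, SE 0.151). Both lay higher in each mutant line, and neither passed. The receptors Igf1r (log2 0.06) and Insr (0.11) overlapped.

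Cell cycle genes lay slightly lower in mutant lines. Of the G2/M genes 30 of 32 lay below 0 (median -0.15), and of the S phase genes 24 of 33 (median -0.10). None passed the edgeR test and 0 of either list had an unadjusted p under 0.05. Cdk1, the mitotic kinase, was at 226 and 202 CPM in wildtype and 176.1 and 192.6 CPM in mutant lines (log2 -0.22, SE 0.118). Kif11, a spindle motor, was at 97.6 and 85.0 against 83.3 and 66.4 CPM (log2 -0.29), and Rrm2, which makes deoxynucleotides, at 313 and 301 against 259 and 275 CPM (log2 -0.20).

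The shift differed between letters. The median of the G2/M genes was -0.20 within letter I and -0.04 within letter L, where 10 of 32 lay higher in the mutant line. The S phase medians were -0.15 and -0.01. With a line left out, 0 to 9 G2/M genes lay higher and their fitted median ranged from -0.20 to -0.07, the latter without wildtype replicate 1, and the S phase median ranged from -0.17 to -0.06. G1 cyclins and kinases were split, with 7 of 15 higher, as were p53 targets, with 7 of 19. Of growth arrest genes and kinase inhibitors 14 of 22 lay higher (median 0.06), and the median ranged from -0.15 to 0.14 with a line left out. Within letters the median was -0.02 (I) and 0.08 (L). Gadd45a, a growth arrest gene induced by DNA damage, was at 5.10 and 5.75 CPM against 6.52 and 6.96 CPM (log2 0.31), and Btg2, an antiproliferative gene, at 85.1 and 83.6 against 95.6 and 100.3 CPM (log2 0.22). Only these 2 of the 22 had both mutant lines above both wildtype lines, and 3 had both below (12.4% and 11.4% of all genes).

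Ribosomal protein genes lay lower in the fit for 40 of 40 members (median -0.17), and for 24 the mutant lines lay below both wildtype lines, as they did for 11.4% of all genes. Rpl23 was at 1330 and 1196 CPM in wildtype and 999 and 1031 CPM in mutant lines (log2 -0.32, SE 0.121). Rplp1, a stalk protein, was at 2103 and 1881 against 1384 and 1799 CPM (log2 -0.32). The summed level of the list was 49180 and 43380 CPM in wildtype and 40490 and 42660 CPM in mutant lines, so wildtype replicate 1 stood highest and the other lines close together. The median was -0.30 within letter I and -0.04 within letter L, and it was -0.06 without wildtype replicate 1, when 7 of 40 lay higher. At quiescence 38 of 40 lay above 0 (median 0.05), as did 54.8% of all genes.

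Short transcripts lay lower as well. Among genes at 5 CPM or more with a GENCODE transcript length, the 284 under 1000 nt had a median log2 of -0.18 and lay higher in 11.3% of cases. For the 1324 genes of 1000 to 1999 nt the median was -0.06, for 5264 genes of 2000 to 4999 nt it was 0.00, and for 2359 genes of 5000 nt or more it was 0.03. Genes under 1000 nt took 7.55% and 6.75% of CPM in wildtype and 6.20% and 6.48% in mutant lines. Within letter I the medians ran from -0.31 in the shortest to 0.10 in the longest class, and within letter L they were -0.04 and -0.03.

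The lists differ in length. The median length was 1124 nt for ribosomal protein genes. Among matrix lists it was 6119 nt for fibrillar collagens, 5324 nt for other collagens and 6536 nt for basement membrane genes. It was lower for elastic fibre genes (4068 nt), matrix glycoproteins (3600 nt) and proteoglycans (3120 nt). For the 12 lower named genes it was 1933 nt. For the 12 higher ones it was 3640 nt, close to the 3591 nt of all tested genes at 5 CPM or more on average. G2/M and S phase genes, at 3474 and 3128 nt, lay in the range of all tested genes (3322 nt). The part of transcript length in the lower ribosomal and the higher matrix values was not tested.

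**Figure D5:**
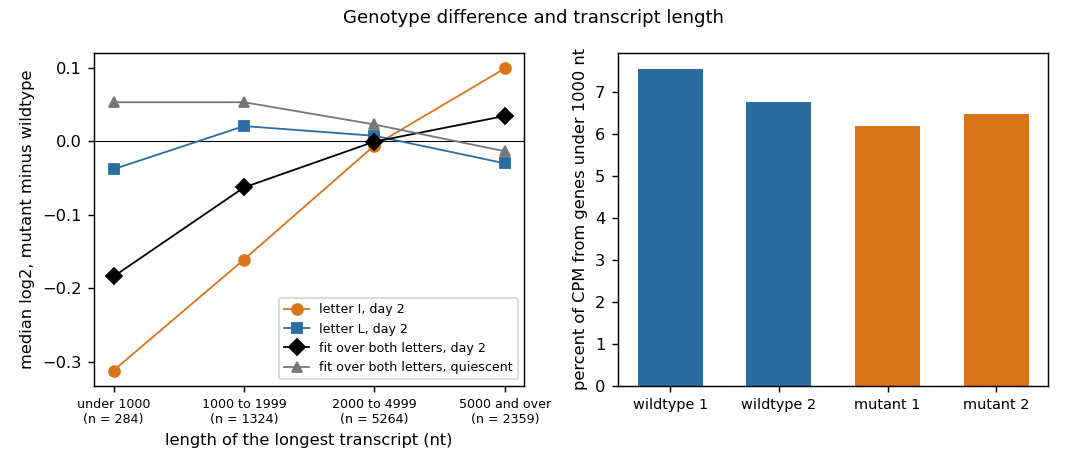
Left, median log2 difference between genotypes (vertical axis) by class of transcript length (horizontal axis, nt) within letter I, within letter L and in the fit at day 2 and at quiescence; lines join classes. Right, percent of CPM from genes under 1000 nt in each day 2 library (bars from 0), 7.55 and 6.75 in wildtype and 6.20 and 6.48 in mutant lines.

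Among signalling lists, Wnt pathway genes lay higher for 28 of 36 (median 0.12, ranging from 0.04 to 0.19 with 22 to 28 higher when a line was left out). Dkk3, a secreted protein of the Dickkopf family, was at 76.6 and 72.2 CPM in wildtype and 85.1 and 122.0 CPM in mutant lines (log2 0.48, SE 0.157), with mutant replicate 2 highest. TGF-beta genes were split, with 13 of 25 higher, and so were contractile genes of myofibroblasts, with 10 of 20. Cholesterol synthesis genes lay higher for 17 of 20 (median 0.09), glycolysis genes for 14 of 19 (0.08) and endoplasmic reticulum stress genes for 14 of 22 (0.04). With a line left out these medians ranged from 0.01 to 0.21, from 0.01 to 0.11 and from -0.05 to 0.08, the last with 8 to 21 genes higher. Housekeeping genes lay lower for 10 of 14 (median -0.07, from -0.16 to 0.02 with a line left out).

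Interferon response genes lay higher for 16 of 30 (median 0.16). The median was -0.01 within letter I, where 11 lay higher, and 0.15 within letter L, and it was 0.01 without wildtype replicate 2 and 0.02 without mutant replicate 1. Their smallest p belonged to Iigp1, an interferon-induced GTPase, with 0 counts in both wildtype lines and 3 and 12 counts in mutant replicates 1 and 2. This is at least 5.66-fold higher against 3 counts over the group, from few reads. At quiescence Iigp1 was at 5.63 and 5.56 CPM in wildtype and 5.90 and 4.54 CPM in mutant lines.

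Other cell types were traced by marker lists. In bulk samples such as these, fewer cells of a type and less RNA per cell cannot be told apart. Macrophage and blood markers summed to 25.2 and 104.8 CPM in wildtype and to 132.4 and 18.9 CPM in mutant replicates 1 and 2, so each genotype had 1 high and 1 low line. Within letter I 18 of 18 markers lay higher in the mutant line, and within letter L 0 of 18 did. Fcgr3, an Fc receptor of macrophages, was at 0.176 and 2.2 CPM against 3.08 and 0.453 CPM. Of 10 erythroid markers 7 had 0 counts in all 4 libraries. Endothelial markers summed to 43.1 to 51.1 CPM over the lines. Epithelial ones summed to 76.7 and 73.8 CPM in wildtype and to 70.8 and 61.8 CPM in mutant lines. Krt19, a keratin, made up most of this sum (56.5 and 58.3 against 48.9 and 43.9 CPM). Krt19 was the 1 epithelial marker with both mutant lines below both wildtype lines, while 3 of the 11 tested had both mutant lines above. Over all genes these shares were 11.4% below and 12.4% above. Of the 11 markers 8 lay higher, with a fitted median log2 of 0.66. Apart from Krt19 and Krt18 (8.37 to 11.7 CPM over the lines) these markers were at low levels, such as Krt8 at 1.46 to 2.17 CPM. The medians within letters were 0.37 (I) and 0.19 (L), and without 1 line the fitted median ranged from 0.09 to 0.64.

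Cartilage markers summed to 471 and 700 CPM in wildtype and 534 and 828 CPM in mutant lines, higher in the letter L line of each genotype. Their member Col2a1, the main cartilage collagen and also on the fibrillar list, was at 160.3 and 271 against 146.1 and 353 CPM. Skeletal muscle markers summed to 302 and 213 CPM against 296 and 151 CPM, with the letter I lines higher. Pericyte markers lay higher for 8 of 9 (median 0.34, from 0.13 to 0.36 with 5 to 8 higher when a line was left out). Anterior Hox genes lay higher for 13 of 18 (median 0.11), posterior Hox genes for 8 of 17 and limb and position factors for 14 of 31, and each of these medians changed sign with a line left out. Neural, bone-forming and adipocyte markers lay higher for 8 of 13, 9 of 13 and 7 of 11 tested genes. The part of such mixtures in the matrix values was not tested.

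A set of mesothelial markers, chosen after values were seen, was higher for 8 of 12 members, 7 of them with both mutant lines above both wildtype lines (12.4% of all genes), and 1 member had both below. Its sum, most of it from Pdpn, Krt19 and Msln, overlapped, at 307 and 289 CPM in wildtype and 312 and 286 CPM in mutant lines. Its member Upk3b, a uroplakin, was at 4.63 and 3.61 CPM against 11.0 and 9.01 CPM (log2 1.29, SE 0.457). Msln, a defining marker of these cells, had a log2 value of 0.05.

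Whether a genotype difference at day 2 differed from that in the resting cells of the same lines was tested as an interaction. In edgeR 0 of 15740 genes passed (0% called). At an unadjusted p under 0.05 there were 265, against 787 expected if no gene differed. DESeq2 called 1, Islr. Islr, a secreted leucine-rich repeat protein of mesenchymal cells, was at 0.937 and 0.855 CPM in wildtype and 1.70 and 2.68 CPM in mutant lines at day 2 (log2 1.35, SE 0.244). In quiescent sums it was at 123.3 and 114.6 CPM against 90.4 and 112.1 CPM (log2 -0.23). Both mutant lines lay above the wildtype lines at day 2 and below them at quiescence. The difference was 1.59 on the log2 scale (SE 0.291, edgeR adjusted p = 1.00, DESeq2 adjusted p = 0.0063).

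Clec11a, a secreted lectin-like growth factor, was called when mutant replicate 1 was left out (edgeR adjusted p = 0.0399), as Islr was (edgeR adjusted p = 0.0386). It was at 0.527 and 0.553 CPM in wildtype and 0.398 and 1.79 CPM in mutant lines at day 2, so the mutant lines lay on either side of the wildtype lines. Islr and Clec11a were both far lower at day 2 than at quiescence, where Clec11a was at 51.9 and 54.3 CPM in wildtype and 44.1 and 81.8 CPM in mutant lines.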

How the data were processed

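The authors' deposited table holds whole-number read counts, not normalized, for 23100 genes. TopHat2 2.1.1 with Bowtie2 2.2.9, HTSeq 0.6.1p1, bcl2fastq 2.18 and the build mm9 are named in the submitters' processing notes. Per the labels' protocols, stranded libraries were made from DNase-treated RNA. No source used here states the annotation or strand setting behind the counts, and overlapping genes and near-identical copies are therefore uncertain.

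CPM values were computed from the counts with TMM scaling. Genes were tested with edgeR 4.0.16 (R 4.3.3, filterByExpr, robust quasi-likelihood F test, 4 residual degrees of freedom) on 8 libraries in 4 groups, the 4 day 2 libraries and, for each line, the sum of days 8, 10 and 12. The fit has no term for the line. P-values were Benjamini-Hochberg adjusted over 15740 genes and called under 0.05. Each SE equals the size of the log2 difference divided by the square root of its F statistic. Separate cultures are not described beyond the line, so p-values measure the spread between these samples. That spread is shared over the 4 groups and so draws on the summed quiescent libraries too. With the day 2 libraries alone the SE was 0.185 for Plagl1, 0.234 for Cpxm1 and 0.406 for Islr. In the main fit these were 0.156, 0.131 and 0.244, while Clec11a went the other way (0.631 alone against 0.723). No day 2 library was a copy of another (chi-square per degree of freedom 20.8 to 59.7). Bounds from 3 counts cover counting error only. Transcript lengths are the longest GENCODE M21 transcript (90.3% of tested genes matched by symbol).

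Named genes are Plagl1, the 12 higher and 12 lower genes with the smallest p whose lines do not overlap, averaging 5 CPM or more in a genotype and leaving out predicted genes. Also named are genes called by an alternative and, in each list, the members of smallest p (at most 4). Some genes that meet this rule are not reported here. Further members were chosen after their values were seen. Members and lists were chosen with earlier results of these data known. The script was tested on simulated data. Alternatives were other scalings, DESeq2 1.42.0, limma-voom (limma 3.58.1), other filters, other sets of libraries, a replicate block and leaving out each line.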

Additional observations from a re-analysis of the deposited data

How the results depend on the processing

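Plagl1 kept its direction and its call in all 15 alternatives, with log2 fold changes from -2.44 to -2.17. The count of genes called between genotypes at day 2 was 1 in the main fit. It was 3 with DESeq2 (Plagl1, Islr with adjusted p = 0.00164 and Cpxm1 with adjusted p = 0.0452) and 1 to 3 with a line left out, with 3 without mutant replicate 1 (edgeR adjusted p = 0.0386 for Islr and 0.0399 for Clec11a). Fits that leave out a line assume that the lone line of a genotype varies like the other groups. The cause of these changes was not tested. Genes at an unadjusted p under 0.05 numbered 451 in the main fit, and from 208 (day 2 libraries alone) to 1078 (without mutant replicate 1) in the alternatives. The interaction count was 0 and became 1 with DESeq2. Genes called between states ranged in wildtype from 4185 to 7755 with a line left out and in mutant cells from 4559 to 5970.

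Of 360 values of the 24 named genes, 359 stayed on their side of the threshold and in their direction, and 1 passed (Cpxm1 with DESeq2, log2 0.74). The choice of genes largely set this outcome. Their lines do not overlap between genotypes, so leaving out a line could hardly reverse a direction, and none was near the threshold in the main fit. Of 615 list medians 127 moved by more than the SD of the medians of the 2 letters. Of the 164 among them that came from leaving out a line, 88 moved and 76 did not. Upper quartile scaling put 53.5% of genes above 0 (median 0.02), against 50.4%.

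Same-numbered lines deviated together at day 2 (correlation of deviations 0.581 over 5000 genes) and at quiescence (0.451). Between day 2 and quiescence of the same line the correlation was 0.036 in wildtype and -0.088 in mutant cells. Deviations thus went with the number within a state more than with the line across states. The labels do not say that a number marks a shared litter or batch, so the numbers were not taken as pairing. With the replicate block the count stayed at 1 called gene, with 477 at an unadjusted p under 0.05. The older moderation of edgeR, planned as an alternative, was the default of the installed version and so is the main fit, and the newer moderation, chosen after seeing the data, also called 1 gene, with 289 under 0.05. The fit of the day 2 libraries with a block, also added after seeing the data, called 1. It had 854 of 13856 genes at an unadjusted p under 0.05, which, unlike the main fit, is more than expected if no gene differed. Genes at few counts, such as Iigp1 and Thbs4, are limited by depth.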
